A study of Oryza sativa Japonica Group with 36 samples.

Results

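A set of 31 probe sets, out of 57258 on the rice array that are not control features, stood below the level of unstressed shoots early in the cold and above it late, in both K354 and C418. A probe set is a group of short probes on the array designed for a transcript or a group of similar transcripts, and its value is a linear fluorescence intensity. The members were chosen by their measured intensities in 3 of the 6 conditions, the control, 2 h and 48 h. They were the probe sets with a mean intensity of at least 50 in both control groups (31300 probe sets) whose mean log2 intensity was at least 0.8 below the control of the same line after 2 h at 4 °C and at least 0.8 above it after 48 h. This rule was met by 102 probe sets in K354, by 151 in C418 and by 33 in both lines. Of those 33, the probe sets of the clock gene PRR95 and of LOC_Os09g11480 were left out, which gives the 31. The reverse course, above the control at 2 h and below it at 48 h by the same thresholds in both lines, was met by 3 probe sets. Because the rule used the arrays of the control, 2 h and 48 h, values at these times describe the members and were not tested. The same holds for 6, 12 and 24 h set against the control, since the control arrays enter the rule. Tests were therefore made only among the 6, 12 and 24 h arrays.

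The genes in question code for several kinds of protein. DnaJ proteins are co-chaperones that stimulate the ATPase of HSP70 and hand it unfolded clients. Proteins with an RNA recognition motif (RRM) bind RNA and take part in splicing, export, stability and translation of transcripts. Brix domain proteins act in the assembly of ribosomal subunits, as known from yeast. Transcripts of plant shoots also follow the time of day, through a clock in which morning and evening genes repress each other.

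K354 is an introgression line (BC2F6) that carries segments of the indica variety Bg300 in the japonica restorer line C418, and C418 is its cold-sensitive recurrent parent. Whole shoots of seedlings at the 3-leaf stage were taken after 2, 6, 12 or 24 h or after 48 h at 4 °C, or from seedlings kept at 25 °C, the control, in which shoots of 2 h and 24 h had been pooled. The 2 lines and 6 conditions make 12 groups of 3 arrays, each array from a separate pot. The seedlings grew with 12 h of light a day at 25 °C, and light during the cold is not given in the sources used here. The samples of 24 h and 48 h of cold fall on the same clock time and the other times do not. The duration of cold and the time of day cannot be told apart here. In whole shoots, a change in the number of cells of a type and a change in RNA per cell cannot be told apart either. Shoot markers were bright in all groups, with group means between 4977 and 14651 for the chlorophyll-binding protein genes CAB2R and LHCP and the Rubisco small subunit gene RBCS-C, while the probe set of RBCS1 stayed between 8.61 and 15.1. Among 5 seed storage protein genes, read as a check of the tissue, GLUA2 had group means between 518 and 910. The others stayed at or below 29.8. Median intensities of the arrays lay between 55.6 and 68. The 9 probe sets of bacterial and phage RNAs added before hybridization averaged 0.68 log2 units above the control in K354 and 0.86 in C418 at 48 h, and at 24 h they averaged 0.23 in K354 and 0.40 in C418 above 6 h. Their part in the values below was not tested, apart from the alternative that scales the arrays to them.

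The median of the members moved up at each step after 2 h. Their median log2 difference from the control of K354 was -1.14 at 2 h, -0.74 at 6 h, -0.21 at 12 h, 0.78 at 24 h and 1.73 at 48 h. The same medians in C418 were -1.02, -0.57, -0.07, 0.86 and 1.94. Over all 57258 probe sets the median difference stayed between -0.13 and 0 at each of these times. Among the 31300 probe sets bright enough for the rule, the median at 2 h was -0.18 in K354 and -0.19 in C418. Only 29.3% and 26.6% of these lay above 0 at 2 h. At 48 h their median was -0.10 in K354 and -0.09 in C418. The part of this general shift in the membership was not tested beyond the normalizations given below. Between 12 h and 24 h, 14 members passed the level of the control in K354 and 13 in C418: 5, 12 and 26 of the 31 were above it at 6, 12 and 24 h in K354, and 6, 14 and 27 in C418. The lowest mean was that of 2 h for 27 members in both lines. The highest mean was that of 48 h for 23 members in both lines and that of 24 h for 3. A step up at every interval, from 2 h to 48 h and in both lines, was seen in 15 members. Between 24 h and 48 h, which share the clock time, the median difference was 0.82 in K354 and 1.01 in C418, with 26 and 27 members above 0. The rule chose members that were high at 48 h, which favours such a rise, so it is described and was not tested.

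**Figure D1:**
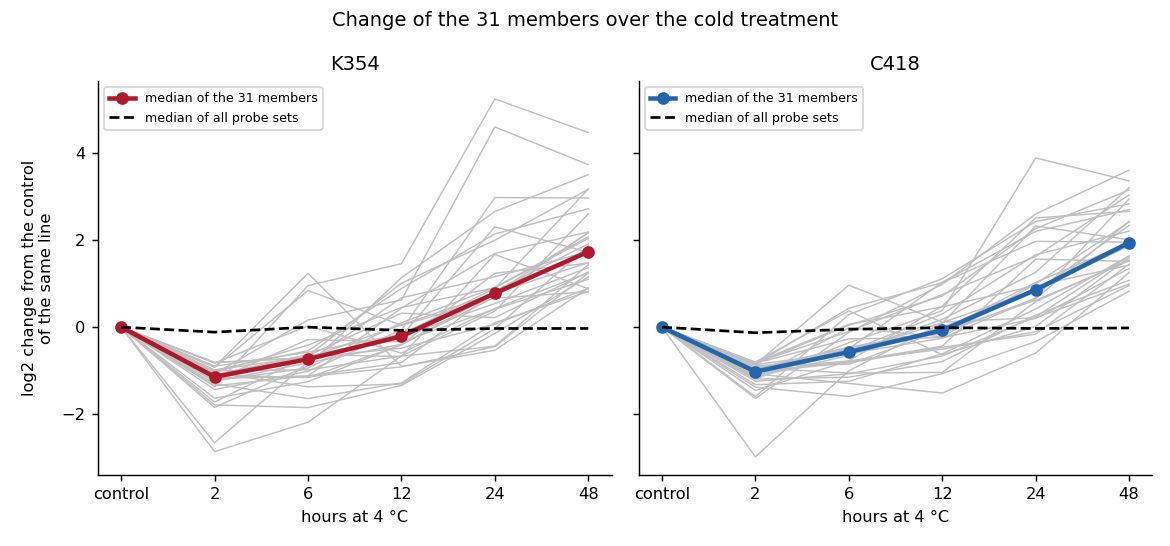
Mean log2 difference of each of the 31 members (grey lines) from the control of the same line, against hours at 4 °C (steps drawn evenly, not to scale), in K354 (left) and C418 (right). The thick line is the median of the members, which runs through -1.14 at 2 h and 1.73 at 48 h in K354 and through -1.02 and 1.94 in C418, and the dashed line is the median of all 57258 probe sets.

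On the arrays that the rule did not use, the rise was present in nearly all members. At 24 h against 6 h of cold, 29 of 31 passed an adjusted p of 0.05 in limma in K354, 28 of them higher and 1 lower, where 31.2% of all probe sets passed, 16.0% of them higher. In C418 it was also 29, with 28 higher and 1 lower, where 26.2% of all passed and 14.7% were higher. Among the 31300 probe sets as bright as the members in the controls, 20.3% were higher in K354 and 19.6% in C418. The 28 that were higher were the same members in both lines. The median difference was 1.74 log2 units in K354 and 1.46 in C418, against -0.03 and 0.01 over all probe sets. In each line the 3 arrays of 24 h did not overlap those of 6 h for 29 members, where this held for 42.3% of all probe sets in K354 and for 39.4% in C418. The members stood by the rule below the control at 2 h and above it at 48 h, so that a course without a turn between these times would also be higher at 24 h than at 6 h. Among differences over 5-fold, 10 members were called in K354, where 0.94% of all probe sets did, and 6 in C418, where 0.603% did.

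**Figure D2:**
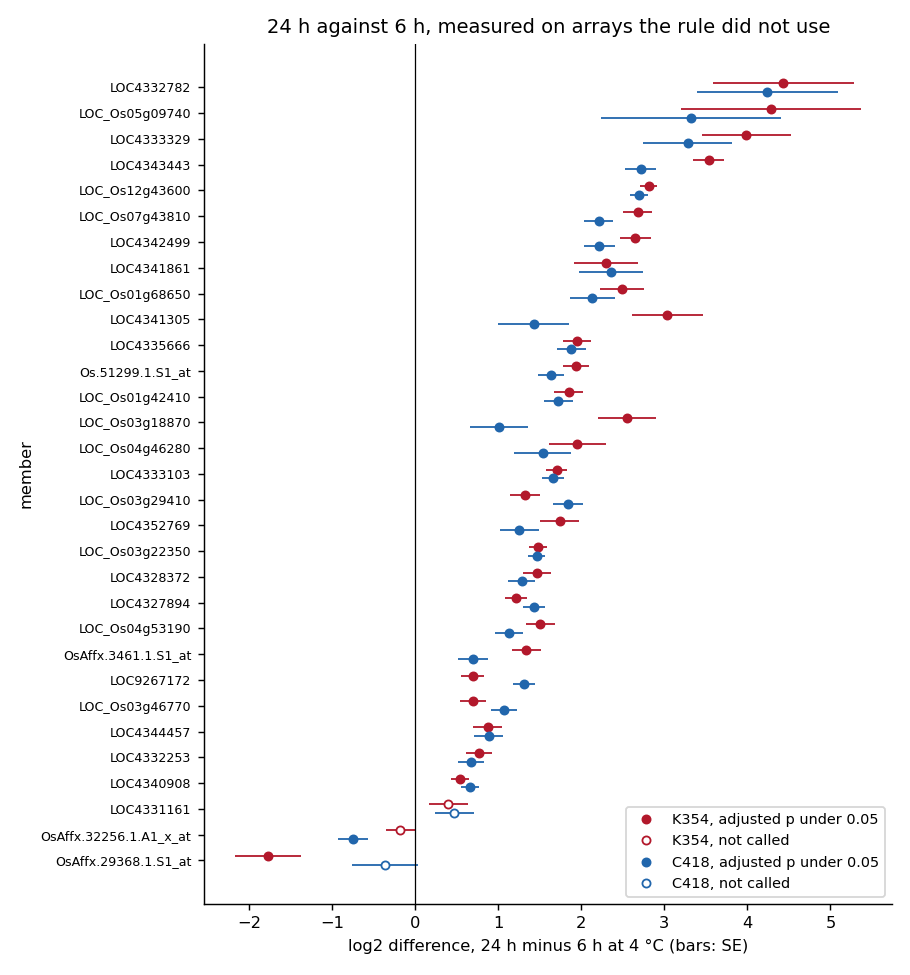
Difference between 24 h and 6 h at 4 °C in log2 units for each member (rows), with SE bars, in K354 (red, upper point) and C418 (blue, lower point), filled where the adjusted p of limma was under 0.05. Filled points lie right of 0 for 28 members in both lines, and the only filled points left of 0 are those of OsAffx.29368.1.S1_at in K354 and OsAffx.32256.1.A1_x_at in C418.

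The steps between 24 h and 12 h and between 12 h and 6 h were tested too, of which the first is the longer. At 24 h against 12 h, 26 members were called in K354, all higher, with a median difference of 1.05, where 25.0% of all probe sets were called and 14.9% were higher. In C418, 22 were called, all higher, with a median of 0.95, where 14.0% of all were called and 7.83% were higher. At 12 h against 6 h, 15 members were called in K354, 13 higher and 2 lower, where 6.32% of all were called and 3.21% were higher, and the median was 0.50. In C418, 11 were called, 10 higher and 1 lower, where 4.68% of all were called and 2.87% were higher, and the median was 0.52. Between 6 h and 12 h the smallest adjusted p belonged to LOC_Os12g43600 in each line, with a difference of 1.56 ± 0.10 (SE) in K354 and 1.53 ± 0.10 in C418 (limma adjusted p = 4.8e-10 and 5.0e-10).

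LOC_Os03g18870, annotated as a DnaJ heat shock protein, had the deepest early dip in K354. Its intensity on the 3 arrays of K354 was 195, 174 and 189 in the control, 32.6, 24.3 and 21.2 at 2 h, 35.7, 36.3 and 53.0 at 6 h, 91.4, 124 and 143 at 12 h, 269, 206 and 249 at 24 h, and 1082, 1102 and 1202 at 48 h. In C418 it was 128, 119 and 123 in the control, 46.9, 60.1 and 59.7 at 2 h, 70.4, 73.9 and 349 at 6 h, 76.5, 115 and 134 at 12 h, 211, 215 and 327 at 24 h, and 603, 703 and 666 at 48 h. The arrays of K354 at 2 h and 6 h all lay below those of C418, while the control and 48 h arrays of K354 all lay above those of C418. The difference from the control at 2 h was -2.86 in K354 and -1.16 in C418, and at 48 h it was 2.60 in K354 and 2.41 in C418. The transcript rose by 2.55 ± 0.35 (SE) in K354 (limma adjusted p = 1.8e-06) at 24 h against 6 h, and by 1.01 ± 0.35 in C418 (limma adjusted p = 0.031). In C418 this value is lowered by the third array of 6 h, at 349, which lies above all arrays of 24 h. Without it the difference was 1.77 (limma adjusted p = 1.2e-06), and without the first or the second array of 6 h it was 0.62 and 0.65 and no longer called, nor was it without the third array of 24 h (0.81). The 4 other DnaJ genes found by annotation differed in direction among themselves. They come from the tables of the study, where genes were chosen on these samples, and do not stand for the whole family. Set against 6 h, at 24 h LOC_Os03g18200 fell by 0.69 in K354 and by 0.62 in C418. LOC_Os01g53020 fell by 1.06 and by 0.79, and LOC_Os03g60790 differed by 0.12 and 0.23 without a call. LOC_Os02g30620, with group means of only 5.25 to 64.5, rose by 0.93 in K354 and differed by -0.21 in C418.

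**Figure D3:**
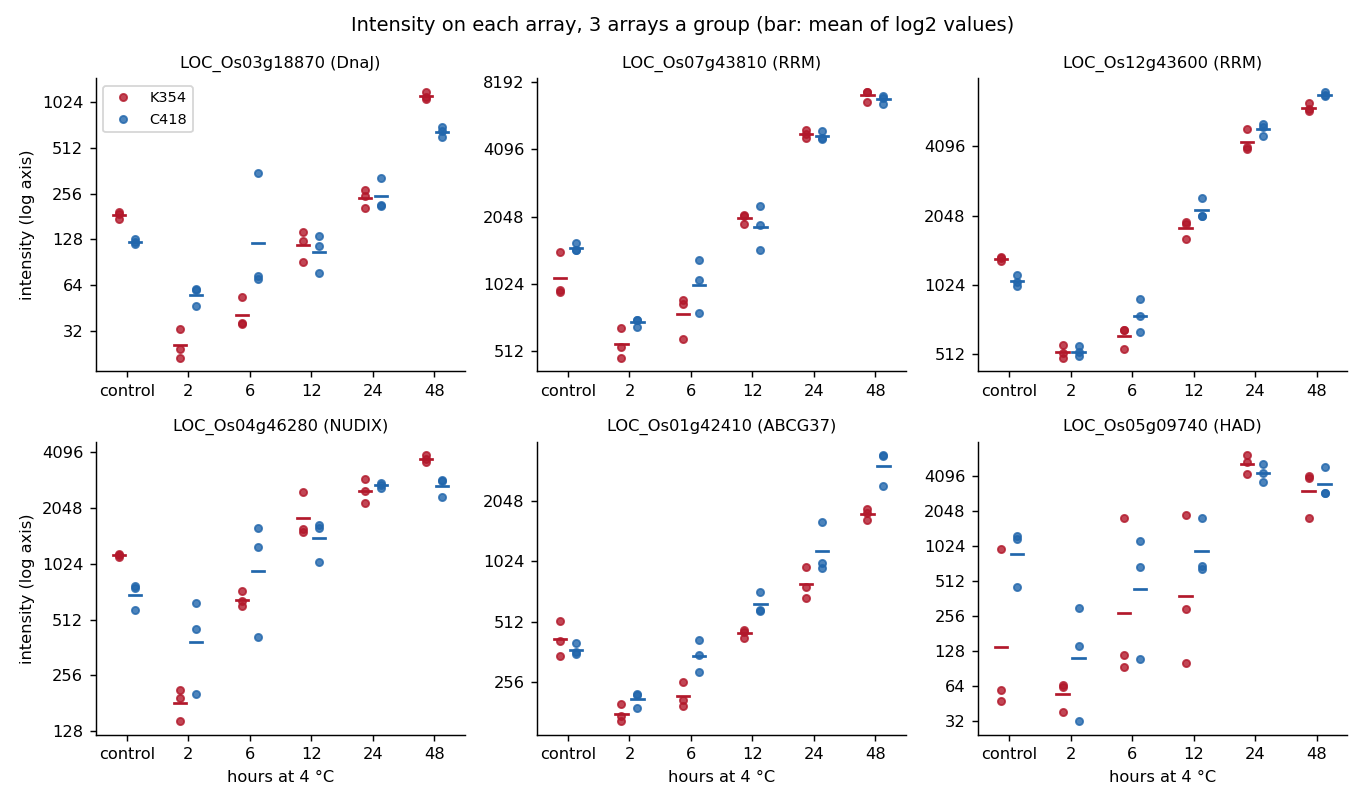
Intensity on each array (points, log axis) against hours at 4 °C for 6 members, in K354 (red, left of each pair) and C418 (blue), with a bar at the mean of the log2 values of 3 arrays. LOC_Os03g18870 lies at 21.2 to 32.6 in K354 at 2 h and at 1082 to 1202 at 48 h, LOC_Os12g43600 at 5846 to 6360.4 in K354 at 48 h, and LOC_Os05g09740 spreads between 47.5 and 965 in the control of K354.

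The RRM annotation was shared by 3 members, the only annotated family with more than 1 gene among them. LOC_Os07g43810 had, in K354, 944, 967 and 1420 in the control, 652, 534 and 479 at 2 h, 579, 871 and 834 at 6 h, 1901, 2093 and 2058 at 12 h, 4794, 4596 and 5020.2 at 24 h, and 6669, 7420.0 and 7413 at 48 h. In C418 it had 1449, 1456 and 1569 in the control, 711, 656 and 704 at 2 h, 1306, 1064 and 758 at 6 h, 1447, 1879 and 2282 at 12 h, 4620.0, 4549 and 4967 at 24 h, and 6519, 7132 and 6953 at 48 h. All arrays of 24 h and 48 h lay above all those of the earlier times in both lines. It rose at 24 h against 6 h by 2.68 ± 0.17 (SE) in K354 (limma adjusted p = 4.7e-12) and by 2.21 ± 0.17 in C418 (limma adjusted p = 2.1e-10). Without the third control array of K354, at 1420, it would miss the rule at 2 h.

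LOC_Os12g43600 was the next of the RRM genes. In K354 its member probe set read 1302, 1342 and 1350 (control), 561, 519 and 493 (2 h), 540.0, 650 and 654 (6 h), 1888, 1925 and 1615 (12 h), 4072, 4865 and 4013 (24 h), and 5952, 6360.4 and 5846 (48 h). In C418 it read 1129, 1012 and 1054 (control), 552, 524 and 501 (2 h), 888, 641 and 750 (6 h), 2045, 2049 and 2449 (12 h), 4968, 4548 and 5138 (24 h), and 6766, 6828 and 7088 (48 h). Arrays of 6, 12 and 24 h did not overlap in either line. Its difference between 24 h and 6 h, 2.81 ± 0.10 (SE) in K354 and 2.70 ± 0.10 in C418, had the smallest adjusted p of the members in each line (limma adjusted p = 1.3e-16 and 3.9e-16).

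LOC_Os03g46770 moved less. Its group means were 868, 376, 711, 687, 1150.1 and 1857 in K354 from the control through the 5 times of cold, and 659, 340, 481, 617, 1010.0 and 1911 in C418. The rise at 24 h over 6 h was 0.70 ± 0.15 (SE) in K354 and 1.07 ± 0.15 in C418 (limma adjusted p = 0.00073 and 4.3e-06), while the step from 6 h to 12 h, -0.05 in K354 and 0.36 in C418, was not called in either line. The annotation was given in the tables of the study to another probe set of this gene.

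For both of the last RRM genes, other probe sets of the same gene gave a different picture, and which transcript each reads was not tested. LOC_Os12g43600 (LOC4352868 in RefSeq) has 4 other probe sets. The brightest, with control means of 12775 in K354 and 12492 in C418, was -0.25 at 2 h and 0.12 at 48 h from the control in K354, and -0.16 and 0.15 in C418. Its rise at 24 h over 6 h was 0.24 in K354 and 0.20 in C418, where the member probe set rose by 2.81 and 2.70. The next ones, with control means of 6189 and 6263 in K354, rose by 0.54 and 0.41 in K354 and by 0.50 and 0.49 in C418, and the dim one, at 50.5 in K354, was not called. LOC_Os03g46770 (LOC4333690) has 5 others, of which the bright pair, with control means of 8772 and 8827 in K354, rose by 0.22 and 0.17 in K354 and by 0.21 and 0.17 in C418. Os.13793.1.S1_at of the same gene came close to the member, with a rise of 1.10 in K354 and 1.24 in C418. Os.49519.1.S1_at, with a control mean of only 36 in K354, rose by 2.90 in K354 and by 3.76 in C418. The course described here is thus that of the member probe sets and not of every probe set of these genes.

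**Figure D4:**
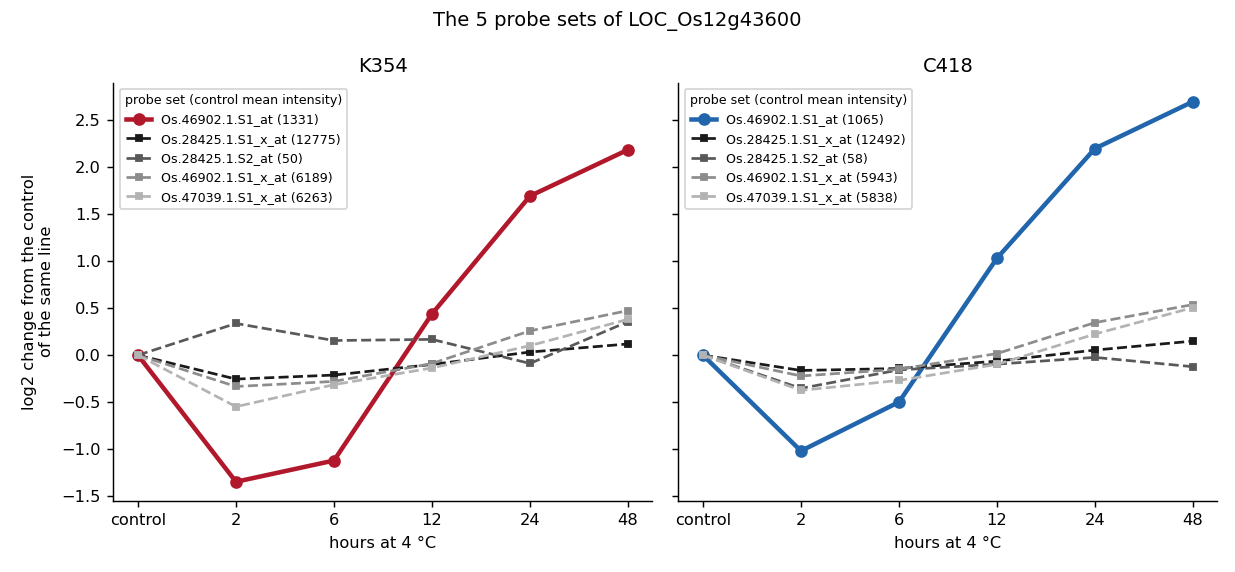
Mean log2 difference from the control of the same line against hours at 4 °C (steps drawn evenly) for the 5 probe sets of LOC_Os12g43600, in K354 (left) and C418 (right), with mean control intensities in the legend. The member Os.46902.1.S1_at (thick line) spans -1.35 to 2.18 in K354 and -1.02 to 2.70 in C418, while the brightest probe set, at 12775 in the K354 control, lies between -0.25 and 0.12 in K354.

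Over all members, 8 genes have 17 other probe sets, and none of the 17 passes both thresholds in both lines. Those of LOC4344457 came nearest: Os.18706.1.S1_x_at stood at -1.10 and 1.38 from the control at 2 h and 48 h in K354 and at -0.77 and 1.57 in C418. Another of this gene, Os.33584.1.S1_at, had a control mean of 20.5 in K354 and 465 in C418, and it stood at 0.17 and 0.17 from the control at 2 h and 48 h in K354 and at -1.31 and 1.27 in C418. The other probe set of LOC4352769, at 385 in the K354 control, was at -1.76 and 0.46 in K354 and at -2.00 and 0.69 in C418. That of LOC4333329 was dim, at 22.8 in the K354 control, and rose by 3.40 in K354 and by 2.69 in C418 at 24 h against 6 h. That of LOC4341861, at 18.1, was not called.

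Enzymes and transporters formed the next group. LOC_Os04g46280 codes for a NUDIX hydrolase, an enzyme family that splits nucleoside diphosphates linked to another group. In K354 it had 1146, 1119 and 1152 in the control, 144, 194 and 212 at 2 h, 606, 727 and 641 at 6 h, 1512, 2503 and 1581 at 12 h, 2957, 2536 and 2187 at 24 h, and 3759, 3948 and 3649 at 48 h. In C418 it had 573, 777 and 758 in the control, 203, 453 and 632 at 2 h, 1258, 1602 and 412 at 6 h, 1051, 1608 and 1664 at 12 h, 2784, 2643 and 2743 at 24 h, and 2348, 2854 and 2919.6 at 48 h. The early dip was -2.65 in K354 and -0.85 in C418, where the arrays of 2 h and 6 h were spread widely. By 24 h it had risen over 6 h by 1.95 ± 0.34 (SE) in K354 and by 1.53 ± 0.34 in C418 (limma adjusted p = 5.2e-05 and 0.00098). Without the third array of C418 at 6 h, at 412, the rise in C418 was 0.94 (limma adjusted p = 0.019).

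LOC_Os01g42410 (OsABCG37, also OsPDR8) codes for a transporter of the pleiotropic drug resistance type, which moves compounds across membranes with the energy of ATP. Its group means were 425, 179, 220.2, 449, 797 and 1767 in K354 from the control through the 5 times of cold, and 373, 212, 351, 628, 1180.0 and 3084 in C418. Over 6 h it rose at 24 h by 1.85 ± 0.18 (SE) in K354 and by 1.72 ± 0.18 in C418 (limma adjusted p = 5.4e-09 and 2.4e-08), and it was called at both intermediate steps in both lines. It would miss the rule without the third array of C418 at 2 h or the first control array of C418. The same holds after quantile normalization or median centring.

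LOC_Os05g09740, annotated as a phosphatase of the HAD superfamily, had the largest sum of the early and late differences and also the widest spread. In K354 it read 47.5, 58.6 and 965 in the control, 62.4, 65.7 and 38.6 at 2 h, 93.4, 1773 and 118 at 6 h, 101, 1883 and 292 at 12 h, 5426, 4291 and 6179 at 24 h, and 1778, 3948 and 4123 at 48 h. In C418 it read 452, 1183 and 1243 in the control, 31.7, 142 and 303 at 2 h, 1135, 671 and 109 at 6 h, 654, 691 and 1772 at 12 h, 5209, 4357 and 3647 at 24 h, and 2957, 4932 and 2944 at 48 h. In K354, 2 of the 3 control arrays lay within the range of the 2 h arrays, and without the third control array, at 965, the gene would not meet the rule. The arrays of 24 h lay above all those of 6 h in both lines, with differences of 4.28 ± 1.09 (SE) in K354 and 3.32 ± 1.09 in C418 (limma adjusted p = 0.0029 and 0.023). In C418 the call was lost without the first or second array of 24 h or without the third of 6 h, with values between 2.32 and 3.32.

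The same arrays were high in other members without an annotation. LOC4332782 had 19.4, 21.3 and 213 in the control of K354, 22.0, 22.7 and 19.1 at 2 h, 20.7, 232 and 25.8 at 6 h, 27.6, 268 and 43.7 at 12 h, 1073, 1043 and 1112 at 24 h, and 347, 590 and 1006 at 48 h. At 2 h all 3 arrays of K354 lay below the 25th percentile of their array, and so did the first and second control arrays. In K354 its control mean and its dip thus rest on the third control array, at 213. The gene would miss the rule without that array, or without the second or the third control array of C418. In C418 it had 32.7, 56.6 and 61.9 in the control, 19.3, 15.3 and 32.4 at 2 h, 67.8, 31 and 25.9 at 6 h, 36.8, 47.5 and 143 at 12 h, 1116, 888 and 371 at 24 h, and 317, 997 and 390 at 48 h. Its difference between 24 h and 6 h was the largest of the members in both lines, 4.43 ± 0.85 (SE) in K354 and 4.24 ± 0.85 in C418 (limma adjusted p = 0.00017 and 0.00033). LOC4341861 had its highest 6 h and 12 h values in K354 on the same second arrays, 268 against 106 and 122 at 6 h and 245 against 95.9 and 134 at 12 h, and rose at 24 h against 6 h by 2.30 in K354 and 2.36 in C418.

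This was part of a wider difference between arrays of a group. In K354 at 12 h the second array was the highest of the 3 for 19 of the 31 members, where it was for 27.4% of all probe sets, and the first array was the lowest for 22, where it was for 25.3% of all. In C418 at 12 h the third array was the highest for 26 members, against 30.2% of all probe sets, and the first was the lowest for 26, against 36.9% of all. In C418 at 6 h the third array was the lowest for 20, against 35.1% of all, and so was the first array of K354 at 6 h, against 35.8%. The part of these arrays in the values was not tested beyond leaving each out. The rule itself held for 16 of the 31 members whichever of its 18 arrays was left out, among them LOC_Os03g18870, LOC_Os12g43600 and LOC_Os03g46770. It held for 15 of them after quantile normalization and for 17 after centring each array on its median, these 3 genes and LOC_Os07g43810 included.

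The remaining annotated members differed in how firmly they met the rule. LOC_Os03g22350 codes for a Brix domain protein, and its group means were 263, 151, 162, 275, 451 and 1187 in K354 from the control through the 5 times of cold, and 316, 144, 202, 317, 554 and 1595 in C418. The rise at 24 h over 6 h was 1.48 ± 0.11 (SE) in K354 and 1.46 ± 0.11 in C418 (limma adjusted p = 3.8e-11 and 5.5e-11). It lies just inside the threshold, at -0.81 in K354 at 2 h. It would miss the rule without the third array of K354 at 2 h or the first or second control array of K354. The same holds after quantile normalization or median centring. Its name ends in _x_at, which marks probe sets with probes that can also bind other transcripts. In all, 5 members have this ending, those of LOC_Os03g46770, LOC_Os04g53190 and LOC4344457 among them. The name of the Brix probe set, Os.28300.4.S1_x_at, shares the number 28300 with probe sets of HSP81-2 and HSP81-3. Their group means were far brighter, 5670 to 7309 and 9622.5 to 11148. Whether the Brix probes bind these transcripts was not tested. The ribosome biogenesis genes BOP1 and RRP46 rose by 0.47 and 0.35 in K354, and in C418 their differences of 0.25 and -0.01 were not called.

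LOC_Os03g29410, with a tyrosine protein kinase domain, had means of 205, 101, 153, 280.0, 383 and 852 in K354 and 159, 89.2, 108, 180.5, 383 and 1471 in C418 in the same order. It rose by 1.32 ± 0.18 (SE) at 24 h against 6 h in K354 and by 1.84 ± 0.18 in C418 (limma adjusted p = 1.8e-06 and 1.1e-08). It would miss the rule without the first array of C418 at 2 h, after quantile normalization or after median centring. LOC_Os04g53190 is annotated with CPuORF12, a conserved upstream reading frame of the kind that can limit translation of the main one. It rose by 1.51 ± 0.17 in K354 and by 1.13 ± 0.17 in C418 (limma adjusted p = 9.2e-08 and 9.5e-06). LOC_Os01g68650, named only for the plant-specific domain TIGR01615, had means of 710.5, 228, 305, 553, 1680.4 and 1995 in K354 and 500.4, 165, 632, 1120.4, 2689 and 3551 in C418. It rose by 2.49 ± 0.27 in K354 and by 2.13 ± 0.27 in C418 (limma adjusted p = 3.7e-08 and 5.6e-07).

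LOC4331161 (OsLpa1), named for low phytic acid in seeds, was the placed gene without a call at 24 h against 6 h. Its group means were 257, 145, 263, 184, 353 and 617 in K354 and 262, 147, 216, 221, 300 and 671 in C418. The difference between 24 h and 6 h was 0.40 ± 0.23 (SE) in K354 and 0.47 ± 0.23 in C418 (limma adjusted p = 0.22 and 0.15).

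Among the members known by RefSeq number only, LOC4343443 and LOC4342499 were 2 that rose at each step from 2 h to 48 h in both lines. LOC4343443 had group means of 383, 108, 209.5, 837, 2401 and 4298 in K354 from the control through the 5 times of cold, and 291, 94.6, 273, 588, 1760 and 3542 in C418. It rose by 3.53 ± 0.19 (SE) at 24 h against 6 h in K354 and by 2.72 ± 0.19 in C418 (limma adjusted p = 1.6e-13 and 2.6e-11). LOC4342499 had means of 254, 76.6, 161, 511, 1005 and 2260.0 in K354 and 209.6, 118, 225, 347, 1010.4 and 1865 in C418. It rose by 2.65 in K354 and by 2.22 in C418. LOC4342499 would miss the rule without the first array of C418 at 2 h, after quantile normalization or after median centring. LOC4333329 rose by 3.99 ± 0.54 in K354 and by 3.28 ± 0.54 in C418, from a probe set of only 80.3 and 88.2 in the controls.

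LOC4328372 was among the members with their largest step after 24 h. Its means were 417, 224, 281, 372, 785 and 3743 in K354 and 391, 207, 260, 336, 624 and 3009 in C418. LOC4335666 and LOC4333103 rose by 1.95 and 1.70 in K354 and by 1.88 and 1.66 in C418 at 24 h against 6 h. LOC4341305 rose by 3.04 ± 0.42 in K354 and by 1.43 ± 0.42 in C418. The smaller rises at 24 h against 6 h, between 0.54 and 1.21 in K354 and between 0.66 and 1.43 in C418, were those of LOC4340908, LOC9267172, LOC4332253, LOC4344457 and LOC4327894. LOC4352769 was below the 25th percentile on all 3 arrays of K354 at 6 h and was at least 2.91-fold higher there at 24 h (limma adjusted p = 1.6e-06), while in C418 it rose by 1.26.

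The 4 members without a gene in the probe table included the exceptions. OsAffx.29368.1.S1_at had, in K354, 167, 142 and 159 in the control, 109, 89.7 and 57.5 at 2 h, 367, 386 and 347 at 6 h, 172, 96.6 and 34.7 at 12 h, 96.3, 185 and 70.0 at 24 h, and 163, 356 and 422 at 48 h. Its 6 h arrays were above those of 2, 12 and 24 h, and it fell by 1.77 ± 0.40 (SE) at 24 h against 6 h in K354 (limma adjusted p = 0.00093), and in C418 the difference was -0.36 ± 0.40 (limma adjusted p = 0.57). OsAffx.32256.1.A1_x_at also had a high 6 h mean, 432 in K354 and 502 in C418, against 241 and 256 in the controls. It fell by 0.75 ± 0.18 in C418 at 24 h against 6 h (limma adjusted p = 0.0019), and in K354 the difference was -0.18 ± 0.18 (limma adjusted p = 0.50). Os.51299.1.S1_at rose by 1.94 in K354 and 1.64 in C418, and OsAffx.3461.1.S1_at by 1.34 and 0.70.

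The lines were compared among the members, which the rule had chosen for the same course in both. Probe sets that met the rule in 1 line only were not among them (102 met it in K354, 151 in C418 and 33 in both). Differences between the lines may thus be under-represented, and the counts cannot say whether the introgressed segments alter this course. For a different change between 24 h and 6 h in K354 and in C418, 0 of 31 passed an adjusted p of 0.05 in limma for the interaction, where 0.55% of all probe sets did. An unadjusted p under 0.05 was found for 8 members and for 11.3% of all probe sets. The smallest adjusted p of limma, 0.17, was that of LOC9267172, with an interaction of -0.62. The largest interactions were 1.61 for LOC4341305 and 1.54 for LOC_Os03g18870. For the change between 12 h and 6 h, a comparison added after the others had been seen, 0 of 31 passed, where 0.274% of all did, and 6 had an unadjusted p under 0.05, where 13.3% of all did. For LOC_Os03g18870 the SE of its 24 h against 6 h interaction was 0.49, so that a difference of the size measured could not be told from 0 after adjustment.

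At single times, 12 members differed between K354 and C418 at 6, 12 or 24 h. At 6 h, 8 of 31 were called, 2 higher and 6 lower in K354, where 18.0% of all probe sets were called. At 12 h it was 6, with 4 higher and 2 lower, where 16.2% of all were. At 24 h it was 2, with 1 higher and 1 lower, where 11.4% of all were. Among probe sets as bright as the members these shares were 24.7, 21.7 and 14.0%, so the counts of members are near or below those of the array. The choice of members by the same course in both lines bears on these counts too.

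The largest of these differences was that of LOC_Os03g18870 at 6 h, -1.57 ± 0.35 (SE) in K354 minus C418 (limma adjusted p = 0.0016). Without the array of C418 at 349 it was -0.82 (limma adjusted p = 0.012), and at 12 h and 24 h it was 0.15 and -0.04 with no call. LOC_Os01g68650 was lower in K354 at 6 h and at 12 h. Its arrays at 6 h were 208, 376 and 332 in K354, against 617, 853 and 426 in C418, and at 12 h they were 368, 724 and 568 in K354, against 759, 1061 and 1541 in C418. The differences were -1.04 ± 0.27 (SE) at 6 h and -1.01 ± 0.27 at 12 h (limma adjusted p = 0.0063 and 0.0076). Each was lost without 1 array, at 6 h without the first of K354 or the second of C418, with -0.78 and -0.79, and at 12 h without the first of K354 or the third of C418, with -0.75 in both cases. In the control this order was reversed, with means of 710.5 in K354 and 500.4 in C418.

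LOC_Os01g42410 was lower in K354 at 6 h, by -0.67 ± 0.18 (SE), and at 24 h, by -0.54 ± 0.18 (limma adjusted p = 0.0082 and 0.045). Its arrays at 6 h were 256, 195 and 209 in K354, against 349, 414 and 289 in C418. The call at 6 h was lost without the second array of C418 (-0.54), and that at 24 h without the first or the third array of K354 (-0.52 and -0.43) or the third of C418 (-0.30). LOC_Os03g29410 was higher in K354 at 6 h, by 0.53, and at 12 h, by 0.63 ± 0.18 (limma adjusted p = 0.041 and 0.014). LOC_Os03g46770 was higher at 6 h by 0.56 ± 0.15 (limma adjusted p = 0.010). Os.51299.1.S1_at was higher in K354 at 12 h, where its arrays were 125, 155 and 147 in K354, against 62.9, 84.1 and 78.6 in C418. That difference of 0.93 ± 0.16 (limma adjusted p = 5.6e-05) kept its call whichever array was left out. The call of the same probe set at 24 h, 0.48, was lost without the first or second array of either line, with values between 0.34 and 0.46, and was 0.74 without the third of K354.

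The other calls were LOC_Os03g22350 (-0.31), LOC_Os12g43600 (-0.30) and OsAffx.3461.1.S1_at (-0.59) at 6 h, and LOC4343443 (0.54), LOC4342499 (0.56) and LOC4333103 (-0.48) at 12 h. Each of these, and those of LOC_Os03g29410 and LOC_Os03g46770, was lost when 1 of several arrays was left out. LOC_Os03g22350 then ranged from -0.21 to -0.34, LOC_Os12g43600 from -0.18 to -0.30, LOC4343443 from 0.36 to 0.53, LOC4342499 from 0.42 to 0.62, LOC_Os03g29410 at 6 h from 0.33 to 0.56, LOC_Os03g29410 at 12 h from 0.56 to 0.60, and OsAffx.3461.1.S1_at from -0.50 to -0.56. LOC_Os03g46770 was 0.49 without the second array of either line, and LOC4333103 was -0.39 without the first array of K354 and -0.42 without the third of C418.

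**Figure D5:**
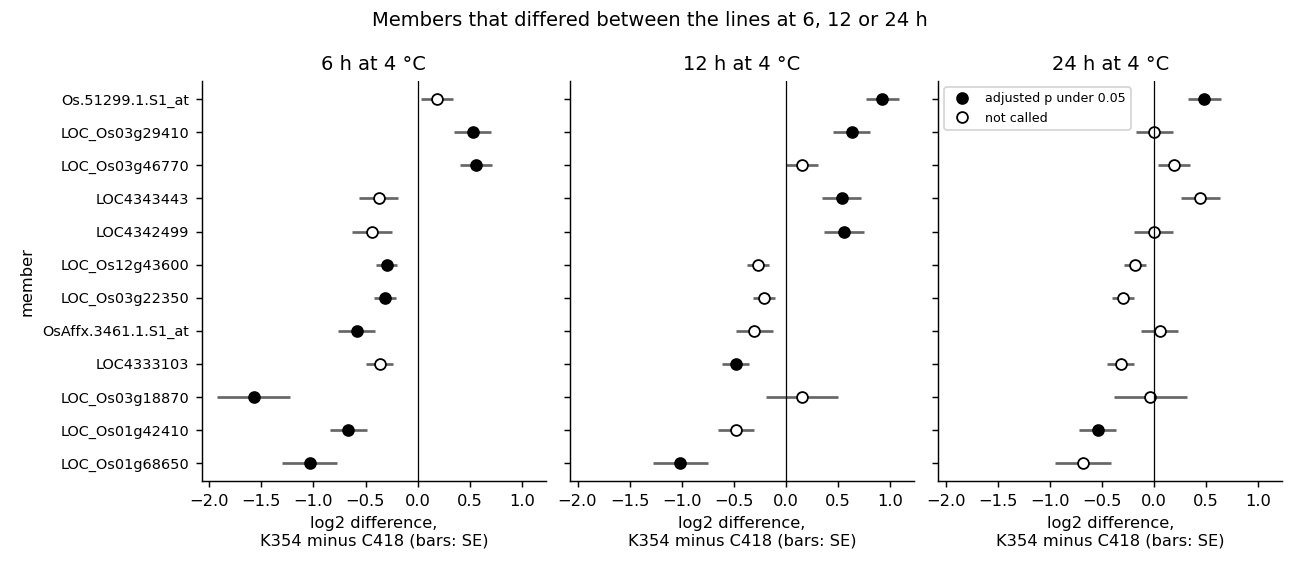
Difference of K354 minus C418 in log2 units, with SE bars, at 6, 12 and 24 h at 4 °C for the 12 members called at any of these times, filled where the adjusted p of limma was under 0.05. LOC_Os03g18870 lies at -1.57 at 6 h and at 0.15 and -0.04 at 12 h and 24 h, while Os.51299.1.S1_at lies at 0.93 at 12 h.

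Lists of RRM and clock genes were set beside the members. The 7 genes annotated with an RRM in the tables of the study were chosen there as cold-responsive on these samples. They give no independent evidence of direction. The members LOC_Os07g43810 and LOC_Os12g43600 are among the 7, and so is LOC_Os03g46770, through its probe set Os.49519.1.S1_at. Set against 6 h, 6 of the 7 rose at 24 h and 1 fell in each line, and the median was 1.86 in K354 and 0.99 in C418. The genes of the members are all among the 6 that rose, and the rule had chosen the members as low early and high late. Over all probe sets, 16.0% were called higher and 15.2% lower in K354, and 14.7% and 11.5% in C418. LOC_Os02g51890 rose by 1.86 in K354 and by 0.99 in C418, and LOC_Os02g12850 rose by 0.92 and 0.51, while LOC_Os01g74340 fell by 0.94 and by 0.99. Of 6 clock genes, 3 rose and 1 fell in each line. PCL1, whose Arabidopsis counterpart acts in the evening part of the clock, rose by 3.22 in K354 and by 2.85 in C418, PRR1 by 1.99 and 2.00, and PRR95 by 1.91 and 1.81. PRR73 fell by 0.58 in K354 and by 0.38 in C418, and LHY and PRR37 were not called. PRR95 had itself met the rule. The relation of the clock genes to the members was not tested. Of 8 chaperones of the HSP90, ClpB and BiP types, 3 rose and 2 fell in K354 and 2 rose and 3 fell in C418, and of 5 DEAD-box RNA helicases, 0 rose and 2 fell in K354 and 1 rose and 4 fell in C418. The 4 shoot markers were not called in either line.

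By position, 8 of the 27 members with a gene lie on chromosome 3, which is 29.6%, where 13.4% of the placed probe sets lie there. They are spread along it: the nearest pairs, LOC4332782 with LOC_Os03g22350 and LOC_Os03g29410 with LOC4333103, have 25 and 33 genes between them in RefSeq (ASM3414082v1). The members just inside the rule were OsAffx.29368.1.S1_at, at -0.80 in C418 at 2 h, and LOC_Os03g22350, at -0.81 in K354 at 2 h. Just outside it were LOC4336765, at -0.79 in C418 at 2 h, and LOC4341420, at 0.78 in K354 at 48 h.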

How the data were processed

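The deposited intensities, 1 per probe set and array, are linear values that the authors had normalized across arrays. The methods name GCOS 1.4 for the scans and the invariant set approach of dChip for normalization, while the sample records name MAS5. Versions of dChip and MAS5 are not given in the sources used here. Raw scans were not used.

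After a log2 transform, limma 3.58.1 in R 4.3.3 fitted 12 groups of 3 arrays in 1 model, with Benjamini-Hochberg adjustment over 57258 probe sets. A call needed an adjusted p below 0.05 and no particular fold. Python 3.11.15, numpy 2.4.6, pandas 2.3.3 and matplotlib 3.10.9 were used for counts and figures. The number of arrays limits the precision. In simulated data for K354 at 24 h against 6 h, 26 of 50 probe sets changed 1.5-fold were called. So were 43 of 50 changed 2-fold, 50 of 50 changed 3-fold and 13 of 57058 unchanged ones. Nearly all probe sets were unchanged there, while 31.2% of all were called in the data. The Benjamini-Hochberg cut was thus stricter in the simulation, which may understate what could be called. For a member below the 25th percentile on all 3 arrays of a tested group, only a bound on the fold is given, taking lower values at that percentile. The rule itself used the values as they were.

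The members and lists were chosen with earlier results of these data known. The text names LOC_Os03g18870, the 12 members with the largest sum of the 2 h and 48 h differences, the 6 with the smallest adjusted p among those called in each comparison, members of a shared family, and further annotated members. A probe table gave 1 gene for 27 members and none for 4, and annotations of 11 come from the tables of the study. The promoter motifs and product names planned could not be looked up, because no sequence or product table was used. In the lists, a gene with several probe sets was read on 1 of them. Lists were HSP90, ClpB and BiP chaperones, DnaJ proteins, clock genes, ribosome biogenesis proteins, DEAD-box helicases, RRM proteins, shoot markers and seed storage proteins. Of the 5 seed storage genes, GLUA2 was called lower at 24 h against 6 h in K354 (-0.54), and none was called in C418. Between the lines, GLUA3 was lower in K354 at 6 h (-0.56) and GLUA2 at 24 h (-0.43).

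Alternatives were quantile normalization, median centring, scaling to the hybridization controls, a filter on dim probe sets, a floor at the 25th percentile, each pair of groups alone, a replicate block, unadjusted p, the methods' t-test, minimum folds of 2 and 5, and each array left out.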

Additional observations from a re-analysis of the deposited data

Results flagged for a closer look

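The RNAs added before hybridization, which enter no comparison, averaged 0.68 log2 units above the control in K354 at 48 h and 0.86 in C418, over 9 probe sets. They were singled out because such RNAs are added in equal amounts and the signal lies above that of the control arrays. With the arrays scaled to them, 23 probe sets met the rule, 15 of them among the 31 members.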

How the results depend on the processing

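The count of members by the rule was 15 under quantile normalization and 17 under median centring (all among the 31), and 89 and 11 with thresholds of 0.6 and 1.0, and leaving out 1 array gave 26 to 38. At 24 h against 6 h, counts stayed within 1.5 times of 29 in both lines except with a minimum of 5-fold. That gave 10 in K354 and 6 in C418, where 0.94% and 0.603% of all probe sets were called. Leaving out 1 array gave 29 members in K354 and 27 to 28 in C418. At 24 h against 12 h, K354 gave 0 with the methods' t-test after Benjamini-Hochberg and 5 with 5-fold. C418 gave 6 with that t-test, 13 with 2-fold and 1 with 5-fold. The same settings called, of all 57258 probe sets, 1 and 389 in K354 and 1683, 1359 and 160 in C418. Leaving out 1 array gave 24 to 26 members in K354 and 19 to 24 in C418. At 12 h against 6 h, K354 gave 0 with the adjusted t-test, 8 with 2-fold and 0 with 5-fold. C418 gave 5 with the groups alone, 20 with unadjusted p, 0 with the adjusted t-test, 2 with 2-fold and 0 with 5-fold. Of all probe sets, these settings called 5, 415 and 16 in K354 and 986, 9086, 0, 234 and 8 in C418. Where the adjusted t-test called 5 or fewer of all probe sets, a count of 0 says nothing about the members. Leaving out 1 array gave 12 to 19 members in K354 and 8 to 14 in C418. For the interaction of line with 24 h against 6 h, unadjusted p gave 8, where 11.3% of all probe sets passed. With any 1 array left out, 0 members passed the adjusted p. The t-test was not run for this interaction.

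Between K354 and C418 at 6 h, the groups alone gave 4, unadjusted p 13, the adjusted t-test 1, 2-fold 2 and 5-fold 0. Of all 57258 probe sets these settings called 9594, 17239, 5810, 1852 and 541. Leaving out 1 array gave 3 to 9 members. At 12 h the groups alone gave 3, the adjusted t-test 0, 2-fold 1 and 5-fold 0. Of all probe sets they called 6031, 4546, 1966 and 571. Leaving out 1 array gave 3 to 6 members. At 24 h scaling to hybridization controls, the groups alone, the replicate block and the adjusted t-test each gave 1. Of all probe sets they called 4607, 2964, 6436 and 1594. Unadjusted p gave 9 and the unadjusted t-test 5, against 13042 and 9308 of all. The folds of 2 and 5 gave 0, against 1718 and 560 of all. Leaving out 1 array gave 0 to 3 members. Apart from filters by fold and the choice of p, the cause was not tested. Replicate numbers did not pair arrays (mean residual correlation 0.0029 for equal numbers and -0.0013 for others, 42 of 198 pairs over 0.1). With the replicate block 29 members were called at 24 h against 6 h in each line. With 3 arrays a group, small differences can be missed, and how often was not measured for data with this many changes. Of the 17841 probe sets called at 24 h against 6 h in K354, 3443 differed by more than 2-fold.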
